A study of Mus musculus with 7 samples.

Results

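Accessible sites at the ends of protein-coding genes were compared between wild-type and Opa1-deficient mouse regulatory T (Treg) cells. A site, or peak, was taken where its interval on the mm10 assembly was under 1000 bp wide and overlapped the 1 kb on either side of an end of a protein-coding gene on a named chromosome. Of 50213 deposited peaks, 11521 (22.9%) met this rule. The others lay inside a gene but away from its ends (21732), 1 to 100 kb from a gene (13836), beyond 100 kb (2696), in intervals of 1000 bp or more (384) or on scaffolds (44). The rule uses position and width only, so the level of a peak and its difference between genotypes did not enter it.

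The assay was ATAC-seq, in which a transposase inserts sequencing adapters into open DNA. Treg cells were sorted from the spleens of mixed bone marrow chimeras, which had received equal parts of marrow carrying CD45.1 or CD45.2. In the chimeras of the 4 WT libraries the CD45.2+ donor was Foxp3Cre. In those of the 3 Opa1 KO libraries it was Foxp3CreOpa1fl/fl. Foxp3-driven Cre was thus present in both groups, and deletion of Opa1 is limited to cells that have expressed Foxp3. Sorted cells were CD4+ and positive for Foxp3-YFP and CD45.2, and lacked CD45.1. Age and sex of the mice are not given in the labels. Each library is labelled as a replicate of its genotype, and p-values measure the spread between these libraries.

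OPA1 is a dynamin-like GTPase that fuses inner mitochondrial membranes and holds cristae in shape. The start and the far end of a gene differ in what they hold. At the start lies the promoter, where nucleosomes are cleared, general transcription factors assemble and RNA polymerase II begins. Promoters that are rich in CpG dinucleotides are typical of genes used in all cells, such as those for ribosomal proteins, and are open in most tissues. CpG-poor promoters are typical of tissue-restricted genes. The far end carries the polyadenylation site and is less often open.

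The sequences behind the peaks with the clearest results are shown first. Each stretch comes from RefSeq on GRCm38, the assembly that mm10 names, runs 5′ to 3′ on the strand of the named gene and lies upstream of it, outside every annotated gene. Capitals mark matches to any of 15 short motifs, searched on both strands. The matches found here were the GC box GGGCGG (bound by SP and KLF factors), the CCAAT box CCAAT (NFY), the NRF1 motif GCGCANGCG, the RUNX motif TGTGGTT and the AP-1 motif TGANTCA. A match describes the letters only. The first 3 stretches belong to the peaks that passed the genome-wide test, all higher in KO. The Eif2s1 stretch (chr12:78862009-78862071, plus strand) is the whole 63 bases between the opposed Atp6v1d and Eif2s1 genes, and the Atm stretch (chr9:53536829-53536888, minus strand) the 60 bases between Atm and Npat. The Trim30c stretch is chr7:104400853-104401028 (minus strand).
Eif2s1: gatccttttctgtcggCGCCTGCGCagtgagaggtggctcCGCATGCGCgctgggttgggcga
Atm: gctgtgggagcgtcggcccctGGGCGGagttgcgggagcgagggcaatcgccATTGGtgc
Trim30c: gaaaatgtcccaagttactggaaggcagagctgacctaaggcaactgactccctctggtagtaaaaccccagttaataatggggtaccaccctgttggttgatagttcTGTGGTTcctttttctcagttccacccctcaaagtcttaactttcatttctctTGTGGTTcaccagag
The next 3 are from peaks with small p in either direction that did not pass that test: Med29 (chr7:28392691-28392940, minus strand) and Bsdc1 (chr4:129461429-129461678, plus strand), with higher means in KO, and Svip (chr7:52006019-52006268, minus strand), with a lower mean.
Med29: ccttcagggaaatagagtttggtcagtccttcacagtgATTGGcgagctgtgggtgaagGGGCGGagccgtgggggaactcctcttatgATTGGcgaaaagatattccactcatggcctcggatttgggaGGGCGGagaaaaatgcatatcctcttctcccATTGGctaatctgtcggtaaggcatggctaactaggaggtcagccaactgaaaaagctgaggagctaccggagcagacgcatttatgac
Bsdc1: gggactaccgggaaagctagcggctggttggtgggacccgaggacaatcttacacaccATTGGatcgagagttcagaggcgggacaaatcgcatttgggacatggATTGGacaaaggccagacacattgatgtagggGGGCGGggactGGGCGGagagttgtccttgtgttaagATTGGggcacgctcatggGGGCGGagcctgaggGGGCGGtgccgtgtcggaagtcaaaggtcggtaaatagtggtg
Svip: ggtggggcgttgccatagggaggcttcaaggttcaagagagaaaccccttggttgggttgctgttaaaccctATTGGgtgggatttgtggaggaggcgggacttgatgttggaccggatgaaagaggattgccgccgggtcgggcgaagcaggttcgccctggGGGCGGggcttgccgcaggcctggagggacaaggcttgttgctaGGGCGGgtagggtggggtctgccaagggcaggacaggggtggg
The last 2 stand for the most accessible gene starts: Sel1l (chr12:91849158-91849407, minus strand) and Bmt2 (chr6:13677967-13678216, minus strand), where an IRF-like GAAANNGAA match is also in capitals.
Sel1l: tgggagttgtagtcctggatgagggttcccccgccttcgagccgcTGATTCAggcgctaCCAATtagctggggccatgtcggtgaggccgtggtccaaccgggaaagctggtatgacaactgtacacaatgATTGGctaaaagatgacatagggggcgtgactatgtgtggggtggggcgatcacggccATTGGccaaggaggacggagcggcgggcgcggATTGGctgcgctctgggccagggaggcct
Bmt2: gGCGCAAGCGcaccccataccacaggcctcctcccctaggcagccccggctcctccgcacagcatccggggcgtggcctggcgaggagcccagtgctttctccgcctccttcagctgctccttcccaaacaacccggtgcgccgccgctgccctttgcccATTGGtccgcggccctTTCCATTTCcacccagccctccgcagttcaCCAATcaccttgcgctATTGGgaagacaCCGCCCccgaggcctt
The Eif2s1 stretch held 2 NRF1 matches, 23 and 47 bases before the Eif2s1 start. The Trim30c stretch had neither a GC box nor a CCAAT box and held 2 RUNX matches. CCAAT boxes were present in 6 of the 8 stretches, with 4 in Sel1l, 3 each in Med29, Bsdc1 and Bmt2 and 1 each in Atm and Svip.

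Most gene-end peaks sat on gene starts. A start could be told from a far end for 17492 of 21900 protein-coding genes, through the strand in a RefSeq promoter table. By that measure 8510 peaks lay at a start, 849 at a far end only, and 2162 at an end whose kind was unknown. Of the start peaks, 6149 (72.3%) covered the annotated start itself. The median peak centre was 3 bp inside the gene, with an interquartile range from 69 bp upstream to 165 bp inside. Some 1817 peaks lay at ends of more than 1 gene, and 909 start peaks lay at the starts of genes on opposite strands. The level of a peak is given below as CPM, the count scaled to a common library total with TMM factors, and as CPM per kb of peak width where peaks are compared. The median WT level was 59.5 CPM per kb at starts and 24.9 at far ends. The far-end median was close to the medians of peaks inside genes (26.04) and 1 to 100 kb away (25.2). Starts on opposite strands that shared a peak had the highest median of these classes, 74.9 CPM per kb.

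**Figure D1:**
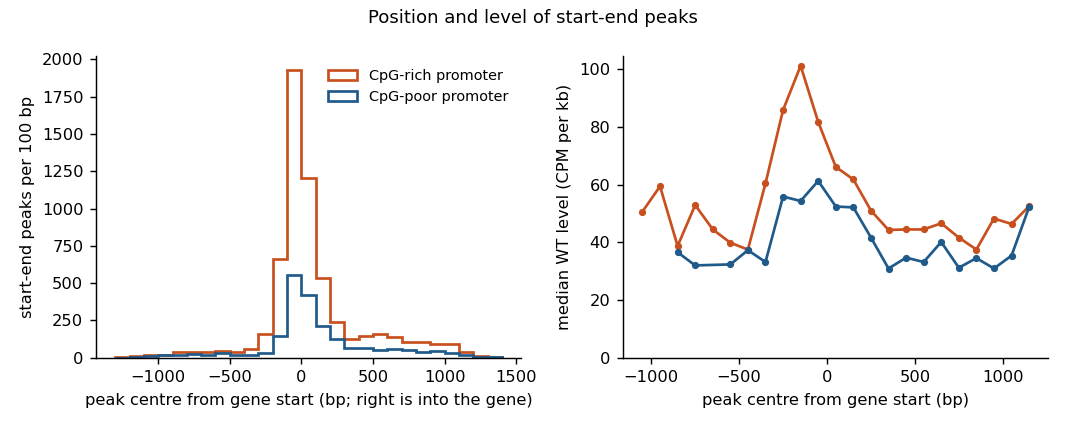
Left, number of start peaks per 100 bp of distance between the peak centre and the annotated gene start (bp), for CpG-rich and CpG-poor promoters. Right, median WT level (CPM per kb) in the same distance bins, for bins of at least 20 peaks; both classes pile up on the start, with a median centre of 3 bp over all start peaks.

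Promoter sequence split the starts further. A promoter, taken as 250 bases before to 50 after the start, was called CpG-rich where GC was over 50% and the ratio of observed to expected CpG over 0.6. Of 7247 genes with a CpG-rich promoter, 5723 (79.0%) had a start peak. Of 8505 with a CpG-poor promoter, 2023 (23.8%) had one. The median WT level was 65.9 CPM per kb at CpG-rich starts (6070 peaks) and 46.8 at CpG-poor starts (2108 peaks), and 332 start peaks matched no promoter sequence. In the plot of distances the level of CpG-rich starts was highest for peaks centred 100 to 200 bp upstream of the start.

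Motifs were counted in the 7329 promoters matched to start peaks and in all 32851 promoters of the table, each of 300 bases. A promoter was matched where its start lay in the peak or within 1 kb of it. The letters of a motif can thus lie outside the peak that is said to have it. The ETS motif CCGGAAG was present in 20.3% of promoters matched to peaks and 8.86% of all. For the GC box these shares were 68.7% and 35.7%, and for NRF1, which drives nuclear genes of mitochondrial function, 15.5% and 6.25%. TATAAA went the other way, at 6.28% against 13.6%, as did AP-1 at 4.28% against 7.81%. Within CpG-rich promoters alone the shares were closer, 77.7% against 75.9% for the GC box and 22.9% against 19.2% for ETS. Within CpG-poor promoters they stayed apart, 42.7% against 15.6% for the GC box and 13.1% against 3.69% for ETS. The CCAAT box was about as frequent in matched promoters (39.9%) as in all promoters (37.4%). Start peaks with the box in their promoter had a median WT level of 85.2 CPM per kb and those without 50.4. Peaks with the Ronin (THAP11) motif CTACANTTC had a median of 89.9, against 59.9 without. GC content and CpG class differ between these sets, so the shares describe sequence and not binding.

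The strongest sites per length were nearly all CpG-rich starts. The 8 members with the highest mean CPM per kb were at Cggbp1, Sel1l, Kbtbd3 (with Aasdhppt), Stt3a, Bmt2, Evi5l, Pitrm1 and, through a 1 bp interval that held 0 to 2 counts per library, Nagpa. At the Cggbp1 peak (chr16:64851578-64852167), which also touches an end of Zfp654, the WT libraries measured 425, 501, 485 and 427 CPM and the KO libraries 439, 502 and 467. Sel1l encodes the adaptor of an endoplasmic reticulum ubiquitin ligase. Its peak (chr12:91848994-91849554) measured 430, 393, 427 and 377 CPM in WT and 384, 448 and 457 in KO. Stt3a is a catalytic subunit of oligosaccharyltransferase, and its start peak (chr9:36767488-36768094) measured 375 to 433 CPM in WT and 378 to 465 in KO. The genotypes overlapped at each of these 3 peaks. Apart from Nagpa, which was too low to test, the 7 peaks had log2 fold changes (KO over WT) from -0.12 at Pitrm1 to 0.07 at Sel1l, with standard errors of 0.07 to 0.08 and adjusted p of at least 0.66.

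Before the genotypes are compared, the libraries are described. Totals over all peaks ran from 1534394 to 3384325 counts, with KO replicate 1 the deepest, and the median count per gene-end peak from 35 to 78. Of the 11521 gene-end peaks, 48 to 149 had no count in a given library. WT replicates 2 and 3 did not differ detectably beyond sampling noise at the 36418 peaks with an average of 10 counts or more (chi-square per degree of freedom 1.009, chi-square p = 0.111). Their mean was counted as 1 sample in each mean ± SD, which gives n = 3 for both genotypes. The labels list them as separate replicates, and the lack of a detected difference does not make them 1 sample. The WT SD over these 3 values can therefore differ from the SD over the 4 libraries, and it is smaller at the Atp6v1d and Atm peaks below. WT replicates 2 and 3 stayed separate libraries in the tests. At gene-end peaks alone WT replicates 3 and 4 also did not differ detectably on halved counts (chi-square p = 0.536). In bulk cells a higher level can mean more cells with the site open or a more open site in each cell, and these cannot be told apart.

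Gene-end peaks took a slightly larger part of the counts in KO. In WT replicates 1 to 4 they held 43.7%, 44.6%, 44.0% and 44.2% of all counts in peaks, and in KO replicates 1 to 3 they held 44.9%, 44.8% and 45.3%. The lowest KO library was above the highest WT library. The means were 44.1% ± 0.327 in WT and 45.0% ± 0.289 in KO (SD, n = 3 each), and the difference of 4 against 3 libraries was 0.891 percentage points. The exact two-sided permutation p was 0.0571, the smallest that 35 splits can give, and 0.114 after adjustment over 3 such comparisons, so the design cannot reach 0.05. The log2 ratio of counts at start peaks to counts at far-end peaks was 5.11 to 5.19 in WT and 5.19 to 5.23 in KO (exact permutation p = 0.114, adjusted 0.114). The log2 ratio of CpG-rich to CpG-poor start counts was 2.08 to 2.11 in WT and 2.11 to 2.14 in KO (exact permutation p = 0.114, adjusted 0.114). In each of these ratios the genotypes overlapped by 1 library pair.

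**Figure D2:**
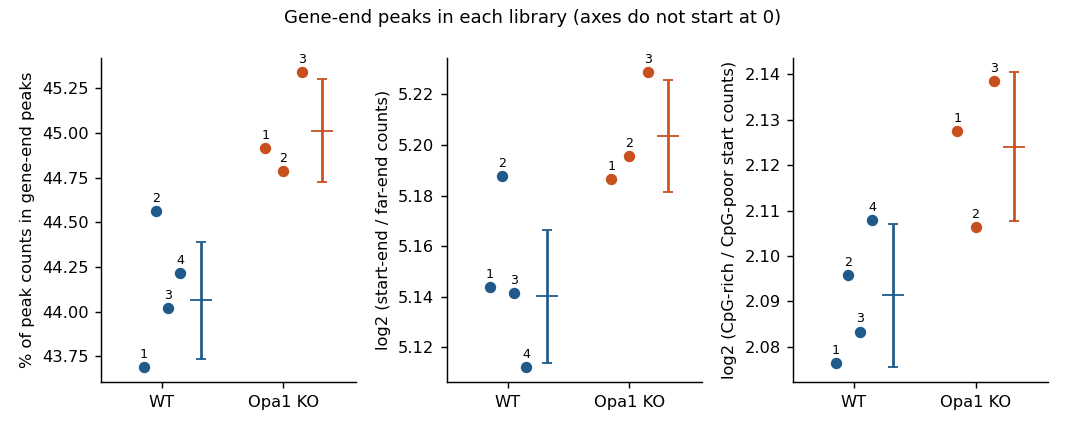
Values of each library (points, numbered by replicate) with mean and SD (bars, n = 3 per genotype with WT replicates 2 and 3 averaged): percent of peak counts in gene-end peaks, log2 ratio of start to far-end counts and log2 ratio of CpG-rich to CpG-poor start counts. The 3 KO libraries (44.8% to 45.3%) lie above the 4 WT libraries (43.7% to 44.6%) in the first panel, and the genotypes overlap in the other panels.

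Peak by peak, few gene ends passed the test. Of the 11521 gene-end peaks, 10457 had enough counts to be tested. With edgeR's quasi-likelihood test and Benjamini-Hochberg adjustment over all 38041 tested peaks, 3 gene-end peaks passed an adjusted p of 0.05, all higher in KO. Over all tested peaks 0.0867% were called (0.0473% higher and 0.0394% lower). At an unadjusted p under 0.05 there were 599 gene-end peaks higher and 297 lower in KO, 8.57% together, against 9.47% of all peaks (4.74% higher and 4.73% lower). The libraries did not overlap between genotypes at 605 gene-end peaks with KO above WT and 334 with KO below, 8.98%, against 9.36% of all peaks (4.85% and 4.51%). The count of calls varied with the tool. DESeq2 called 10 gene-end peaks (0.139% of all peaks it adjusted), limma-voom 14 (0.145% of all), counts halved 19 (0.338%), a mean count of at least 20 gave 13 (0.25%), and WT replicates 2 and 3 summed gave 5 (0.112%). The share of gene-end peaks past either unadjusted mark was thus slightly under that of all peaks, while the balance between directions leaned to KO.

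That lean depended on the scaling. The median log2 fold change was 0.034 over tested gene-end peaks, -0.00099 over all tested peaks and -0.023 over peaks away from gene ends. With loess offsets, which remove a trend of fold change with abundance, the medians were 0.0045 and -0.0043 for gene-end and all peaks. Gene-end calls with loess offsets were 1 higher and 3 lower, in place of 3 and 0, against 0.0315% higher and 0.0657% lower (0.0973% together) of all peaks. In the main scaling the fold change rose with level, from a median of -0.11 in the lowest decile of tested peaks by mean CPM to 0.068 in the highest decile for gene-end peaks, and from -0.12 to 0.057 for other peaks. Gene-end peaks made up 11.6% of the lowest decile and 63.4% of the highest.

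**Figure D3:**
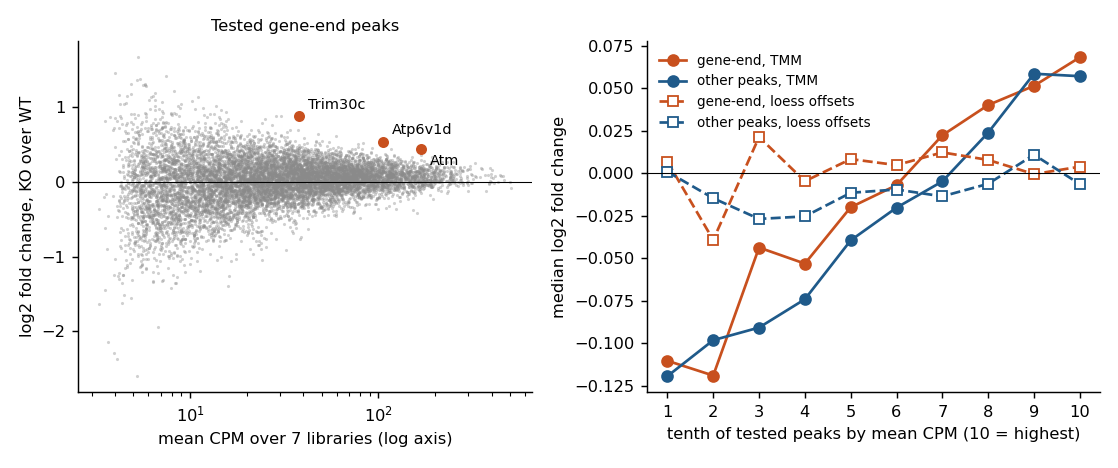
Left, log2 fold change (KO over WT) against mean CPM (log axis) for the 10457 tested gene-end peaks, with the 3 called peaks in orange. Right, median log2 fold change by decile of mean CPM for gene-end and other peaks under TMM scaling (filled) and loess offsets (open); the TMM medians of gene-end peaks rise from -0.11 to 0.068 and the loess medians stay near 0.

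By class of end, the median log2 fold change was 0.046 where the peak covered the start (5936 tested; 377 higher and 134 lower at unadjusted p under 0.05) and -0.00081 where it lay beside it (1982 tested; 84 and 68). At starts of genes on opposite strands it was 0.070 (893 tested; 76 and 17). It was 0.049 at CpG-rich starts (364 and 143) and 0.0032 at CpG-poor starts (85 and 53), and -0.021 at far ends (608 tested; 24 and 20). With loess offsets the medians of these 6 classes lay between -0.018 and 0.026. Among motifs, start peaks whose matched promoter held the YY1 letters AAGATGGC had a median log2 fold change of 0.098 (380 tested, with 26 higher and 2 lower at unadjusted p under 0.05). Those with NRF1 had 0.083 (1211 tested; 86 and 19) and those with ETS 0.061 (1560 tested; 101 and 22), against 0.036, 0.030 and 0.033 without each motif. At that p, 599 of the 10457 tested gene-end peaks were higher and 297 lower. The shares over all tested peaks were 4.74% higher and 4.73% lower. Motif medians are given in the main scaling only. The members of these classes share libraries and differ in abundance, so no test was made between them.

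The 3 called peaks lay at gene starts. The first covers the starts of Atp6v1d, a subunit of the V-ATPase proton pump that acidifies lysosomes, and Eif2s1, the alpha subunit of translation factor eIF2, whose phosphorylation is the hub of the integrated stress response. It spans chr12:78861426-78862169 and holds both start sites, at 78862008 (minus strand) and 78862072 (plus strand), with the NRF1 letters printed above between them. Its WT libraries measured 94.0, 94.8, 78.3 and 86.4 CPM and its KO libraries 113, 137 and 139 CPM. All KO libraries were above all WT libraries. The mean was 89.0 ± 4.34 CPM in WT and 130 ± 14.2 in KO (SD, n = 3 each), with log2 fold change 0.54 (SE 0.11, edgeR adjusted p = 0.0154). The call was lost with loess offsets (log2 fold change 0.48, adjusted p = 0.0596) and without KO replicate 2, KO replicate 3, WT replicate 3 or WT replicate 4 (edgeR adjusted p = 0.073, 0.191, 0.0968 and 0.0695), within a range of 0.0094 to 0.191 over 16 alternatives.

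Trim30c is a TRIM-family gene in a cluster of closely related copies on chromosome 7, and its start peak (chr7:104400602-104401019) is CpG-poor. The WT libraries measured 29.6, 27.1, 31.9 and 23.7 CPM and the KO libraries 57.0, 51.8 and 45.3. The 3 KO values were all higher. The mean went from 27.6 ± 3.36 to 51.4 ± 5.86 CPM (SD, n = 3 each), with a log2 fold change of 0.88 (SE 0.18, edgeR adjusted p = 0.0134). Without KO replicate 1, WT replicate 1 or WT replicate 4 the adjusted p was 0.22, 0.0528 and 0.0973, and over the alternatives it ranged from 0.0026 to 0.22. Neighbouring copies also have start peaks. Trim30a (chr7:104465016-104465437) had a log2 fold change of 0.29 (SE 0.19, edgeR adjusted p = 0.662). Trim30d (chr7:104507693-104508120) measured 26.2, 25.05, 28.3 and 30.6 CPM in WT and 16.3, 15.2 and 10.2 in KO (log2 fold change -0.96, SE 0.25, edgeR adjusted p = 0.115). These 2 were looked up after the Trim30c value was seen. The placement of reads that match several copies was not stated, so the values of single Trim30 genes are uncertain.

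The other called peak (chr9:53536542-53537154) is the shared promoter of Atm, the kinase that signals DNA double-strand breaks, and Npat, a coactivator of histone gene transcription. The WT libraries measured 149, 148, 138 and 143 CPM and the KO libraries 178, 220 and 196. The genotypes did not overlap. Mean level was 145 ± 3.3 CPM in WT and 198 ± 20.9 in KO (SD, n = 3 each), with log2 fold change 0.45 (SE 0.09, edgeR adjusted p = 0.017). Averaging WT replicates 2 and 3 (148 and 138 CPM) makes this WT SD smaller than that of the 4 libraries. The call was lost with loess offsets (0.38, adjusted p = 0.0804) and without KO replicate 2, KO replicate 3, WT replicate 1, WT replicate 3 or WT replicate 4 (edgeR adjusted p = 0.158, 0.0931, 0.0632, 0.0788 and 0.0695), with a range of 0.0057 to 0.158 over 16 alternatives.

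Beyond the calls, the peaks with the smallest p and no overlap between genotypes are given as values. With higher means in KO they were at Anln, which encodes the cytokinesis scaffold anillin, Rpl18, Med29 with Paf1, Bsdc1 and Atp6v1b2. Anln measured 22.3, 23.0, 19.3 and 24.2 CPM in WT and 34.5, 48.0 and 42.1 in KO (log2 fold change 0.88, SE 0.21, edgeR adjusted p = 0.0548). Rpl18, a protein of the large ribosomal subunit, measured 49.4, 56.2, 40.9 and 48.5 CPM in WT and 74.9, 72.0 and 76.6 in KO (0.62, SE 0.15, edgeR adjusted p = 0.0575). At Rpl18 the lowest KO library was well above the highest WT library. The peak between Med29, a Mediator subunit, and Paf1, of the polymerase-associated factor complex, measured 61.0 to 81.2 CPM in WT and 92.7 to 106 in KO (0.53, SE 0.13, edgeR adjusted p = 0.0575). Bsdc1 measured 93.0 to 110 CPM in WT and 129 to 146 in KO (0.44, SE 0.11, edgeR adjusted p = 0.069). Atp6v1b2, like Atp6v1d a subunit of the cytosolic V1 part of the V-ATPase, was at 14.5, 21.7, 18.1 and 29.5 CPM in WT and 39.4, 44.2 and 32.4 in KO (0.88, SE 0.22, edgeR adjusted p = 0.08). None of these 5 passed the main edgeR test. DESeq2 called Anln, Rpl18, Med29 and Bsdc1, limma-voom called Rpl18, Med29, Bsdc1 and Atp6v1b2, and edgeR with counts halved called all 5.

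In the other direction the 8 peaks were at Gm21814, Svip, Mpp7, Gucy1b1, Cdca7l, Pcyox1l, Decr1 and Dut, with edgeR adjusted p from 0.0515 to 0.101, so none passed. All 8 were called by edgeR with counts halved and with a mean count of at least 20, and DESeq2 called Gm21814, Svip and Mpp7 (adjusted p = 0.0449 each). Gm21814, a predicted gene with a CpG-poor start, measured 17.4, 27.1, 26.5 and 14.8 CPM in WT and 6.16, 12.6 and 6.47 in KO (log2 fold change -1.39, SE 0.32, edgeR adjusted p = 0.0515). The 3 KO libraries were all below the 4 WT libraries, an order that was a condition for all 8 of these peaks. Svip, a small inhibitor of the p97 ATPase in endoplasmic reticulum degradation, measured 34.4, 23.0, 32.5 and 34.8 CPM in WT and 18.5, 15.2 and 10.8 in KO (log2 fold change -1.05, SE 0.24, edgeR adjusted p = 0.0534). Gucy1b1, the beta subunit of soluble guanylate cyclase, measured 31.97, 13.5, 21.7 and 18.4 CPM in WT and 8.63, 8.85 and 9.71 in KO (-1.26, SE 0.31, edgeR adjusted p = 0.0672). The WT libraries of Gucy1b1 were spread and the KO libraries close together. Decr1, a mitochondrial enzyme of unsaturated fatty acid oxidation, measured 41.1 to 53.8 CPM in WT and 25.3 to 32.4 in KO (-0.74, SE 0.19, edgeR adjusted p = 0.0841). Dut, which removes dUTP before DNA synthesis, measured 157 to 178 CPM in WT and 126 to 135 in KO (-0.37, SE 0.10, edgeR adjusted p = 0.101). Cdca7l, a MYC-interacting protein, measured 44.1, 43.3, 30.1 and 45.3 CPM in WT and 26.5, 26.5 and 10.8 in KO (-0.91, SE 0.22, edgeR adjusted p = 0.0683). The lower peaks with the largest fold changes were low in level, while Dut and Mpp7 (168 to 188 CPM in WT, 116 to 147 in KO; -0.41, SE 0.10, edgeR adjusted p = 0.0598) were among the stronger sites.

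**Figure D4:**
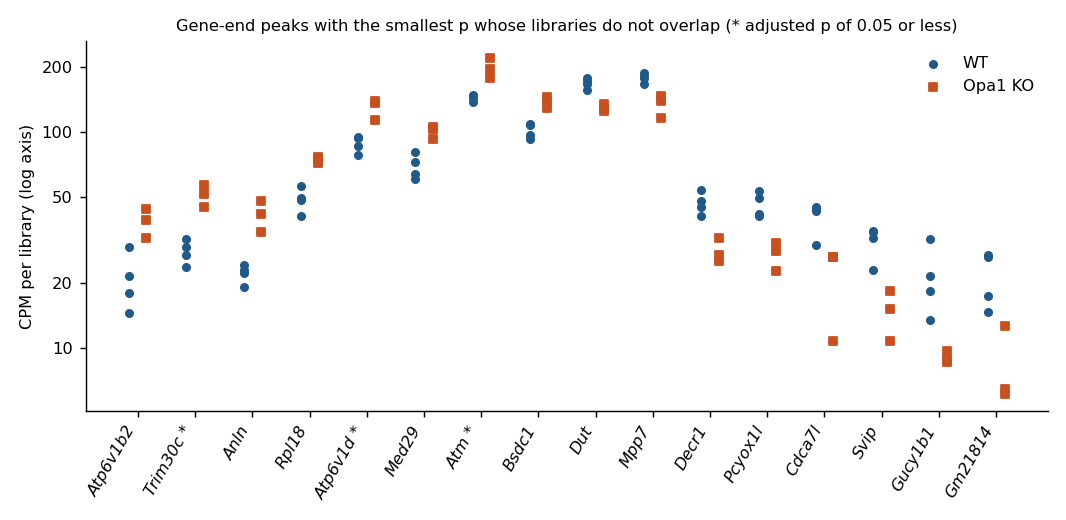
CPM of each library (log axis; WT circles, Opa1 KO squares) at the 8 gene-end peaks per direction with the smallest p and no overlap between genotypes. Stars mark Trim30c, Atp6v1d and Atm, which passed an adjusted p of 0.05; Cdca7l has 1 WT library (30.1 CPM) below the other 3.

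No gene-end peak of the Treg genes named here passed the edgeR test. Opa1 itself had a start peak (chr16:29579139-29579524) at 36.8, 33.8, 37.3 and 37.9 CPM in WT and 33.3, 29.1 and 42.6 in KO, with overlap (log2 fold change -0.06, SE 0.19, edgeR adjusted p = 0.955). The labels do not say which part of Opa1 is floxed, so this peak does not check the deletion. Il2ra, the alpha chain of the interleukin-2 receptor, measured 46.0, 58.9, 53.6 and 59.0 CPM in WT and 56.7, 44.9 and 56.1 in KO (-0.03, SE 0.16, edgeR adjusted p = 0.975). The inhibitory receptor Ctla4 measured 66.3 to 82.8 CPM in WT and 59.3 to 89.1 in KO (-0.02, SE 0.13, edgeR adjusted p = 0.984). Genotypes overlapped at both. At 3 other Treg genes the KO libraries were all above the WT libraries without passing the test. The same order was found at 605 of 10457 tested gene-end peaks and at 4.85% of all tested peaks. Several genes were looked up by name, and whether Treg genes had this order more often was not tested. Ikzf2 (Helios) measured 69.0 to 85.5 CPM in WT and 93.5 to 95.8 in KO (0.27, SE 0.12, edgeR adjusted p = 0.459). Tigit, at a peak 460 bp from the gene's start, measured 96.1 to 113 CPM in WT and 119 to 125 in KO (0.23, SE 0.11, edgeR adjusted p = 0.482). Prdm1 (Blimp-1), at a peak 792 bp from the gene's start, measured 57.2 to 63.6 CPM in WT and 70.2 to 77.7 in KO (0.31, SE 0.14, edgeR adjusted p = 0.461). Bach2, a repressor that keeps T cells in a resting state, had the same order, 27.8 to 36.7 against 38.3 to 45.5 CPM (0.33, SE 0.18, edgeR adjusted p = 0.583).

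The remaining named genes overlapped between genotypes. They were Batf and Irf4, factors of effector differentiation (0.11, SE 0.20, and -0.30, SE 0.25), Tcf7 (0.86, SE 0.56, at 0.969 to 10.8 CPM), Icos (0.07, SE 0.39) and Tfeb, a regulator of lysosome genes (-0.22, SE 0.20). For Lamp1, a lysosomal membrane protein, the range was 9.03 to 16.9 CPM in WT and 16.2 to 27.8 in KO (0.54, SE 0.28, edgeR adjusted p = 0.548). Foxp3 had no gene-end peak under the rule: its 3 peaks lay within the annotated gene (chrX:7579676-7595243), the strongest at chrX:7583850-7584440 (log2 fold change 0.17, edgeR adjusted p = 0.754). The Tnfrsf18 peak (chr4:156030621-156031133) was more than 1 kb from the gene, and Atf4 had no peak in or near the gene.

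Gene lists were read by counts and medians. They were chosen with earlier results of these data known, and no set test was run. For reference, 56.1% of tested gene-end peaks and 49.8% of all tested peaks had a log2 fold change above 0. At an unadjusted p under 0.05 were 8.57% of gene-end peaks and 9.47% of all peaks (4.74% higher and 4.73% lower), and 0.0867% of all peaks were called. In cytosolic ribosomal proteins 75 of 84 genes had a gene-end peak, and 69 of 82 tested peaks (84.1%) were above 0, with a median of 0.15 (0.12 with loess offsets). None passed the adjusted edgeR test, and 5 were higher and 0 lower at an unadjusted p under 0.05 (6.10% of the list). Rpl18 of this list was called by DESeq2 (adjusted p = 0.0408), limma-voom (0.0393), with counts halved (0.0266) and with a mean count of at least 20 (0.0492). Summed over the list, the level was 3527 to 3599 CPM in the WT libraries and 3805 to 3979 in the KO libraries. Ribosomal protein genes have many processed pseudogenes, which lack the promoter, but the handling of reads with several matches is not known here.

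V-ATPase subunits had the highest list median, 0.20 (0.19 with loess offsets), with 16 of 24 tested peaks above 0, 1 called (Atp6v1d) and 3 higher against 1 lower at an unadjusted p under 0.05 (16.7% of the list, against 9.47% of all peaks). The list's summed level was 748 to 803 CPM in WT and 863 to 894 in KO. Genes of the integrated stress response had a median of 0.19 (0.14 with loess offsets), with 22 of 31 above 0, 1 called and 7 higher against 1 lower at that p (25.8% of the list). The called peak is the same in both lists, that of Atp6v1d and Eif2s1. The summed level of stress response peaks was 1629 to 1732 CPM in WT and 1838 to 1917 in KO. Atf4, the main transcription factor of this response, has no peak in these sums. Sums were also higher in every KO library for mitochondrial ribosomal, spliceosome, mitochondrial fusion, resting Treg and T cell receptor response genes. In the remaining lists, such as respiratory chain genes (3116 to 3299 CPM in WT and 3198 to 3262 in KO), the genotypes overlapped. The share of counts in all gene-end peaks was likewise higher in every KO library.

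Mitochondrial fusion, fission and cristae genes, the group Opa1 belongs to, had 20 of 24 tested peaks above 0 and a median of 0.15 (0.088 with loess offsets), with 3 higher and 0 lower at an unadjusted p under 0.05 (12.5% of the list) and none called by edgeR, DESeq2 or limma-voom. The member with the smallest p was Mief2, a receptor for the fission factor DRP1, at 28.9 to 37.9 CPM in WT and 41.5 to 50.6 in KO (log2 fold change 0.47, SE 0.18, edgeR adjusted p = 0.367). The other mitochondrial lists stood closer to the background. Mitochondrial ribosomal proteins had 50 of 77 above 0 and a median of 0.076, and respiratory chain and ATP synthase genes 44 of 79 and 0.053, with none called in either by edgeR, DESeq2 or limma-voom. Mrpl19 measured 23.2 to 32.5 CPM in WT and 38.8 to 41.7 in KO (0.54, SE 0.19, edgeR adjusted p = 0.333). Atp5h, at a start shared with Kctd2, measured 26.3 to 31.3 CPM in WT and 38.8 to 41.7 in KO (0.53, SE 0.19, edgeR adjusted p = 0.343).

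Spliceosome proteins had 34 of 47 above 0 (median 0.11), lysosome and autophagy genes 37 of 64 (0.029), proteasome subunits 24 of 43 (0.017) and replication-dependent histone genes 19 of 36 (0.012). Their members with the smallest p had adjusted p of 0.21 to 0.413. These were Snrpd2, a core Sm protein (100 to 121 CPM in WT and 116 to 164 in KO), Gabarap, of the autophagosome (2.91 to 6.77 and 9.71 to 12.9), Psma1 (32.9 to 48.5 and 51.8 to 64.1) and H1f3, a linker histone (11.5 to 17.4 and 21.5 to 25.3). The H1f3 peak lay 211 bp from the far end of the gene and 986 bp from its start. Only at Snrpd2 among these 4 did the genotypes overlap. These 4 were picked for their small p, so the lack of overlap follows largely from that choice. Over all tested peaks of these lists 9.30% to 13.9% did not overlap, against 9.36% of all tested peaks.

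Among T cell lists, effector Treg genes were the only one of the 15 lists with a median below 0, at -0.043 (-0.063 with loess offsets), 15 of 35 above 0 and 3 higher against 4 lower at an unadjusted p under 0.05. Its member with the smallest p was at Bhlhe40, a factor of effector cells, 946 bp from a gene end of unknown kind. That peak measured 43.1, 35.2, 42.2 and 41.6 CPM in WT and 22.2, 29.1 and 34.5 in KO (log2 fold change -0.54, SE 0.20, edgeR adjusted p = 0.344). There the highest KO library was just below the lowest WT library. Core Treg genes had 9 of 18 above 0 (median 0.0048), and their smallest p was at Gpr83, a Treg surface receptor, at 31.6 to 42.6 CPM in WT and 23.7 to 30.3 in KO (-0.51, SE 0.20, edgeR adjusted p = 0.385). Resting and central Treg genes had 14 of 23 above 0 (0.084), with Bcl2, which protects from apoptosis, at 82.8, 83.9, 63.8 and 80.6 CPM in WT and 104, 103 and 93.3 in KO (0.37, SE 0.12, edgeR adjusted p = 0.28). Genes that respond to AP-1, NF-kB or the T cell receptor had 26 of 41 above 0 (0.078), with Junb at 33.4 to 44.6 CPM in WT and 51.8 to 59.2 in KO (0.50, SE 0.17, edgeR adjusted p = 0.276). Interferon response genes had 18 of 33 (0.017), with Gbp2 at 14.2 to 20.3 against 22.2 to 30.2 CPM (0.54, SE 0.25, edgeR adjusted p = 0.482). The Gbp2 peak lay 667 bp from the start of Gbp2 and 494 bp from the far end of Gbp2b. None of the peaks in these 5 lists was called by edgeR, DESeq2 or limma-voom. With loess offsets the medians of core Treg, interferon and histone genes were also below 0 (-0.025, -0.025 and -0.037).

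**Figure D5:**
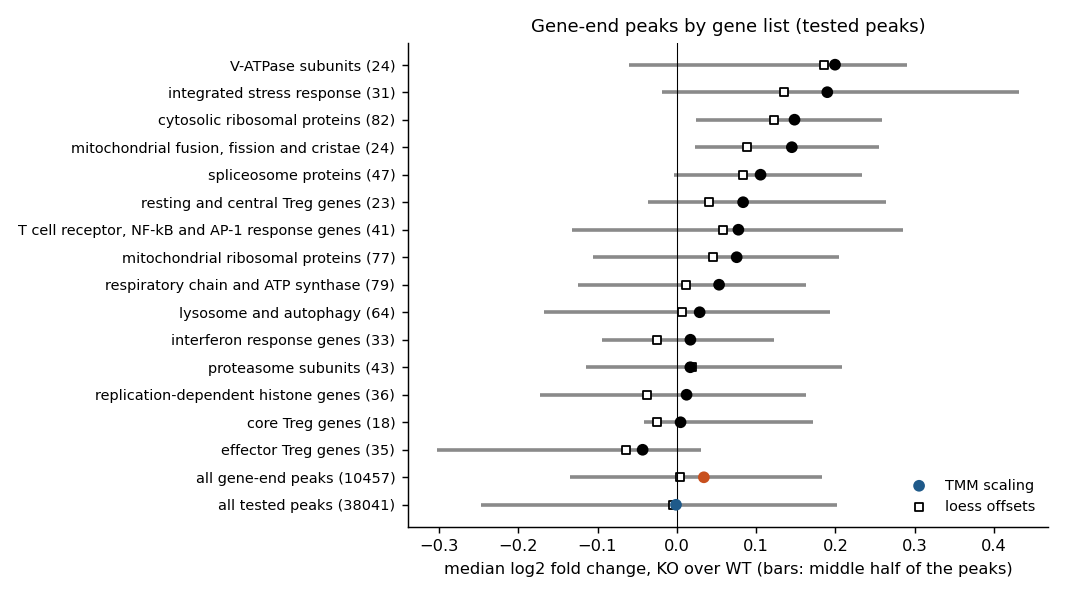
Median log2 fold change (KO over WT) of tested gene-end peaks in each gene list, number of peaks in brackets, with grey bars over the interquartile range; filled points use TMM scaling and open squares loess offsets. V-ATPase, stress response, ribosomal and mitochondrial shape genes have the highest medians (0.15 to 0.20), against 0.034 over all gene-end peaks, and effector Treg genes the lowest.

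Markers checked the sorted cells. Gene-end peaks were found for 11 of 12 pan T cell genes, with summed levels of 375 to 419 CPM in WT and 406 to 453 in KO, and for 3 of 5 Treg genes (214 to 244 and 242 to 261). B cell genes had peaks at 3 of 10 (Blk, Cr2 and Ebf1, 28.4 to 37.9 CPM in WT and 18.3 to 25.3 in KO), while Cd79a, Cd79b, Ms4a1 and Pax5 had none. Myeloid genes had peaks at 4 of 11 (30.5 to 40.9 and 22.8 to 31.4 CPM), natural killer cell genes at 1 of 5 (4.06 to 9.69 and 5.39 to 8.01), dendritic cell genes at 2 of 6 (13.5 to 27.1 and 19.6 to 25.3), CD8 genes at 2 of 2 (20.5 to 29.8 and 24.96 to 36.1) and erythroid and platelet genes at 2 of 8 (26.3 to 40.9 and 24.0 to 26.4). The B cell sum was lower in every KO library than in any WT library. Most of it was Cr2 (21.3 to 27.4 CPM in WT and 14.8 to 21.5 in KO), where the genotypes overlapped. They also overlapped at Ebf1 (2.71 to 4.82 and 2.53 to 4.31). Blk was lower in every KO library but near the floor (1.35 to 7.38 and 0 to 1.26). The part of the B cell sum in the differences above was not tested.

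The limits of the rule did not mark a step in level. Members of 900 bp or wider (237 peaks) had a median WT level of 72.6 CPM per kb and a median log2 fold change of 0.054, and gene-end peaks from 1000 to under 1100 bp wide (121, outside the rule) 71.6 and 0.074. Members more than 800 bp from the nearest gene end (589 peaks) had medians of 33.6 CPM per kb and -0.0026, and peaks from just over 1000 to 1200 bp away (532, outside the rule) 36.2 and 0.0071. At the narrow end, 59 members were under 100 bp wide.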

How the data were processed

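ATAC-seq libraries of sorted splenic Treg cells were analysed, 4 WT and 3 Opa1 KO, grouped by the labels. The values are raw read counts in 50213 intervals on mm10, in 1 table deposited by the authors. Per the submitters' processing notes the tools were bedtools 2.25.0, BWA 0.7.16, MACS2 2.1.1, Picard 2.9.4, SAMtools 1.9 and Trimmomatic 0.36. Tool settings, peak merging and any correction of read ends for the transposase were not given in the sources used here, and such a correction moves peak edges by a few bases. Positions are as deposited, and it is unknown whether the first base is numbered 0 or 1. Of the counts 78.0% to 86.3% per library were even, as when both mates of a pair are counted, so fragments are fewer than counts.

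Gene ends, strands and promoter sequences came from RefSeq tables of GRCm38.p6 (21900 protein-coding genes, 43800 ends). The table has no exons. A start peak lies within 1 kb of a start, a far-end peak only of the other end. edgeR 4.0.16 (quasi-likelihood, robust, genotype only) in R 4.3.3 was run on the whole table after filterByExpr (minimum count 10, total 15) with TMM factors of 0.985 to 1.013, and adjusted by Benjamini-Hochberg over 38041 peaks at 0.05. The SE is the absolute log2 fold change over the square root of the F statistic. Library values were compared by exact permutation. Alternatives used DESeq2 1.42.0, limma 3.58.1 (voom), other scalings and filters, windows of 200 and 2000 bp and each library left out. The procedure was tested on simulated data with 200 changed peaks at each of 3 fold changes. It called 18.5% of the 1.5-fold, 47.5% of the 2-fold and 89.0% of the 4-fold changes. Of its 325 calls, 15 were false. Most changes under 2-fold could thus be missed. Plots used matplotlib 3.10.9.

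The members, lists, tests and the rule for named peaks were chosen with earlier results of these data known. Named were the called members, the 8 per direction with the smallest p and no overlap, the 8 highest per kb, the strongest member of 16 genes of Treg biology and the member of each list with the smallest p. PCR copies were not marked by molecular identifiers, so counts are not independent molecules.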

Additional observations from a re-analysis of the deposited data

Results flagged for a closer look

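In 2 of 52 values checked for a WT library far from the other 3, WT replicate 3 stood apart; chance flags about 1 in 20 groups. At the Cdca7l start peak (chr12:117843350-117844194) WT replicate 3 measured 30.1 CPM and the other WT libraries 43.3 to 45.3 CPM. At the Bcl2 start peak (chr1:106713922-106714584) it measured 63.8 CPM and the others 80.6 to 83.9. The low value was nearer to the KO libraries at Cdca7l and further from them at Bcl2.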

How the results depend on the processing

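The count of called gene-end peaks was 3 in the main test and stayed 3 with RLE size factors, without a filter on low counts and with windows of 200 or 2000 bp. Over all tested peaks those first 2 settings called 0.0894% and 0.0677%. It was 10 with DESeq2 (7 higher, 3 lower), 14 with limma-voom (11 and 3), 19 with counts halved (10 and 9), 13 with a mean count of at least 20 (5 and 8), 5 with WT replicates 2 and 3 summed (3 and 2) and 4 with loess offsets (1 and 3). Leaving out 1 library gave 1 to 7 calls (0.038% to 0.118% of all peaks), 1 without KO replicate 3 or WT replicate 1 and 7 without WT replicate 2. Atp6v1d, Trim30c and Atm were all called by DESeq2, limma-voom, counts halved, a mean count of at least 20 and WT replicates 2 and 3 summed; Trim30c alone of the 3 was called with loess offsets and none without WT replicate 4. Each kept its direction under all 16 alternatives. The cause of the changes in count was not tested. The difference in share of counts was 0.729 to 1.04 percentage points with a library left out, and the log2 ratios kept their direction under every alternative run for them. Whether replicate numbers pair the mice is not known. Deviations from the group means of same-numbered libraries correlated at 0.0106, -0.0119 and 0.00372. These values cannot decide the question, because the deviations are mostly counting noise if 2 counts stand for 1 fragment. With counts halved, the chi-square per degree of freedom over all peaks was 1.009 to 1.086 between replicates of the same genotype. With the replicate block on numbers 1 to 3, 2 peaks were called (1 higher, 1 lower; 0.0484% of all), none of the 3 above, and the share differed by 0.922 points (exact permutation p = 0.25, the smallest that 3 pairs allow). Depth limits peaks of few counts: 1064 gene-end peaks were not tested.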

Other observations

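Gene-end and other peaks were set side by side at equal abundance. In each decile of tested peaks by mean CPM, a smaller share of gene-end than of other peaks had an unadjusted p under 0.05, for example 8.99% of 1757 against 16.6% of 2047 in decile 9 and 12.8% of 2414 against 15.6% of 1391 in the highest. The SD of the log2 fold change over peaks was also smaller at gene ends in each decile (0.190 against 0.243 in decile 9), while the median SD within genotypes was close (0.206 and 0.213). These are descriptions over peaks of the same libraries, with no test.

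Gene-end peaks with an unadjusted p under 0.01 were most frequent on chromosome 7: 32 of 796 tested (4.02%), against 237 of 10457 on all chromosomes (2.27%). Of the 16 peaks with the smallest p per direction, 4 were on chromosome 7, at Rpl18, Med29 and Trim30c with higher and Svip with lower means in KO. The chromosome was singled out after its values were seen. By promoter GC content, the median WT level was lowest in the quartile of start peaks with the least GC (52.3 CPM per kb) and 61.5 to 66.2 in the other quartiles, and the median log2 fold change was 0.020 in that quartile and 0.041 to 0.046 in the others.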
